A study of Mus musculus with 2 samples.

Results

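A set of 10 genes that mark astrocytes and the oligodendrocyte lineage was followed in the mouse cochlea after noise: Gfap, Slc1a2, Slc1a3, Aldoc, Aldh1l1, Olig1, Olig2, Nkx2-2, Pdgfra and S100b. They were taken by symbol, as every non-control spot whose gene name in the array design equals one of these names, and they make up 10 of the 37067 gene names on the array. They have 20 probes of 60 bases, of which 17 were measured, that is, called well above background by the scanner software on both arrays, and every one of the 10 genes had at least 1 measured probe. Cochlear total RNA from C57BL/6 mice, an inbred strain (females aged 7 weeks), was hybridised to 1-colour Agilent expression arrays. The noise group had 1 sample, from mice exposed to intense noise for 2 h and dissected 3 h after the exposure, and the baseline group had 1 sample, from mice that had no noise exposure. The labels do not give how many mice stand behind each sample, the level of the noise or the side of the cochlea. With 1 array per group there was no replicate error and no test, so each difference below is a difference between 2 samples, and a size rule of 2-fold (1 on the log2 scale) was used to count genes.

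Astrocytes and oligodendrocytes are the macroglia of the central nervous system. Astrocytes clear glutamate and potassium from around synapses, and oligodendrocytes, which arise from precursors that carry the PDGF alpha receptor, wrap central axons in myelin. In the ear, Schwann cells and satellite cells ensheathe the peripheral part of the auditory nerve, while astrocytes and oligodendrocytes ensheathe its central part, which in rodents begins within the base of the modiolus. Several of the genes are not restricted to central glia: S100b is also made by Schwann cells and cochlear supporting cells, Slc1a3 by supporting cells and satellite cells, and Pdgfra by fibroblasts.

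The genes lowest after noise were the astrocyte glutamate transporter gene Slc1a2 (3.44-fold lower), the oligodendrocyte lineage transcription factor genes Olig1 (2.70-fold), Olig2 (2.50-fold) and Nkx2-2 (2.09-fold), and the brain aldolase gene Aldoc (2.11-fold). These were 5 of the 10 genes at least 2-fold lower, where 1.25% of all 26528 measured genes were (332 genes). None of the 10 was at least 2-fold higher, where 0.611% of all measured genes were (162 genes). With the arrays scaled to Agilent's spike-in controls instead, 186 genes were lower and 351 higher, and 3 of the 10 were at least 2-fold lower (Slc1a2, Olig1 and Olig2). The count was also 3 with normexp background correction (Slc1a2, Olig1 and Aldoc), where 74 of all measured genes were lower. With a stricter filter on dim probes it was 3 of the 8 genes then measured, where 179 of all measured genes were lower. By probe, 6 of the 17 measured probes were at least 2-fold lower, against 1.27% of all 41647 measured probes. The other 5 genes, Gfap, Aldh1l1, S100b, Pdgfra and Slc1a3, lay under 2-fold. The median log2 ratio, noise minus baseline, over the 10 genes was -0.79, against -0.01 over all measured genes. Of the 10, 9 had a ratio below 0, as did 52.5% of all measured genes. In bulk tissue, fewer cells of a type and less RNA per cell cannot be told apart.

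The sequences of the probes that carry the lowest ratios show what was read on the array. The last 30 bases (31 to 60) of the probe are printed, and capitals mark a polyadenylation hexamer (AATAAA or ATTAAA) where these bases hold one. Of the 20 probes, 3 held a hexamer anywhere in their 60 bases, against 13.4% of all non-control probes. The probes of Slc1a2, Olig2 and Nkx2-2 held none.
Slc1a2 A_52_P168496: acaagaaccacagggaaagcaactctaatc
Olig1 A_52_P603038: aacgttctcATTAAAgtaagcggagttggg
Olig2 A_52_P223626: tagtttgagctttttgggagggggtattct
Nkx2-2 A_51_P197718: gctccttcgttgtaaatatcgctagtgatc
Aldoc A_66_P133314: ggccaaatagctatgcagaacagagatatc
Aldoc A_51_P220681: ttacattgctgtacccgagaccacaggatg
Aldoc A_55_P2070992: gagtacatagcaAATAAAtgagagcaaaac
The Slc1a2 probe lies at chr2:102617706-102617765 on the plus strand. The Olig1 probe lies at chr16:91271799-91271858 and the Olig2 probe at chr16:91228470-91228529, both on the plus strand. For the Nkx2-2 probe the array design lists only 25 bases, chr2:147008888-147008912 on the minus strand. The 3 Aldoc probes lie side by side on the plus strand at chr11:78139897-78139956, chr11:78139964-78140023 and chr11:78140198-78140257, without overlap, so they read separate stretches of the same gene. These positions are on mm9, as the array design gives them. The annotation of that build was not used here, so no exon is assigned.

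The upstream sequence was looked up because several of these genes were low together. The RefSeq promoter table (GRCm38.p6) held 9 of the 10 genes in 10 entries and did not list Olig1. Olig2 and Olig1 are neighbours on chromosome 16, with 41091 bases between their gene records in RefSeq. The 250 bases before the listed start are printed for Olig2 and for the first start of Aldoc, which were at least 2-fold lower and whose listed start is also the start of the gene record. Capitals mark matches, on either strand, to the SOX core ACAAT, the NFI half-site TTGGCA and TATAAA.
Olig2 chr16:91225300-91225549 plus strand: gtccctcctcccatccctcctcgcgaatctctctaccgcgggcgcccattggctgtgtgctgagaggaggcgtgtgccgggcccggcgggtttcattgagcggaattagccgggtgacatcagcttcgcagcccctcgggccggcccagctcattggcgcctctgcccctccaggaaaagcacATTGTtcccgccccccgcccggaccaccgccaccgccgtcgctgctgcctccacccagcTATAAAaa
Aldoc chr11:78322823-78323072 plus strand: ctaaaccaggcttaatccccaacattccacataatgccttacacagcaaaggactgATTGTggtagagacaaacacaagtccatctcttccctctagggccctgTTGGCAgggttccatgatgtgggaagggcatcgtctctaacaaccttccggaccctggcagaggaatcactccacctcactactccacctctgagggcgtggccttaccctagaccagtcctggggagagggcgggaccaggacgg
Over the same 250 bases, ACAAT was found in 27.7% of the 32851 promoters in the table, TTGGCA in 12.3% and TATAAA in 12.4%. The E-box CANNTG, the general motif of basic helix-loop-helix factors such as Olig1 and Olig2, was found in 66.2% of promoters but in neither window printed. Slc1a2 held 4 E-boxes and Nkx2-2 held 3, but the listed starts of both lie inside their gene records and not at the record's start. A match describes letters in the window and was not tied to binding here.

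Of the astrocyte genes, Slc1a2, which encodes the glutamate transporter GLT-1 of astrocytes, was the lowest. Its measured probe had a processed signal of 142 after noise and 430.1 at baseline. After each array was scaled to its 75th percentile, these were 0.450 and 1.55 multiples of it, a log2 ratio of -1.78. Of all measured genes, 0.200% had a ratio at or below it, which placed Slc1a2 at rank 53 from the lowest. Another probe, for the transcript ENSMUST00000128622, had signals of 0.910 and 0.876, at background on each array, so it gives no fold.

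Aldoc encodes aldolase C, the brain form of the glycolytic enzyme aldolase, which in the brain marks astrocytes and some Purkinje cells. Its signals on the noise and baseline arrays were 2668 and 4969 for A_66_P133314, 2818 and 5675 for A_51_P220681, and 10010 and 16500 for A_55_P2070992. The log2 ratios of the 3 probes were -1.08, -1.19 and -0.90, so all 3 were lower after noise and the brightest lay under 2-fold. The last 2 probes are printed 10 times on the array, which gives the technical spread. For A_51_P220681 the scaled signal of the 10 baseline spots ran from 19.1 to 22.3 with a median of 20.3, and that of the 10 noise spots from 8.14 to 9.94 with a median of 8.93. For A_55_P2070992 the 10 baseline spots ran from 57.5 to 62.6 with a median of 59.1, and 8 noise spots from 30.4 to 32.8 with a median of 31.8, 2 noise spots having been left out for outlier flags. The spots of the 2 arrays did not overlap for either probe. How many of the 300 probes with repeat spots also did not overlap was not counted, so this does not set Aldoc apart. The means were 20.4 ± 0.992 (SD, n = 10 spots) against 8.94 ± 0.556 (SD, n = 10 spots), and 59.3 ± 1.41 (SD, n = 10 spots) against 31.7 ± 0.774 (SD, n = 8 spots). Spots of one array share its RNA, so this spread covers printing and scanning and not the animals.

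**Figure D1:**
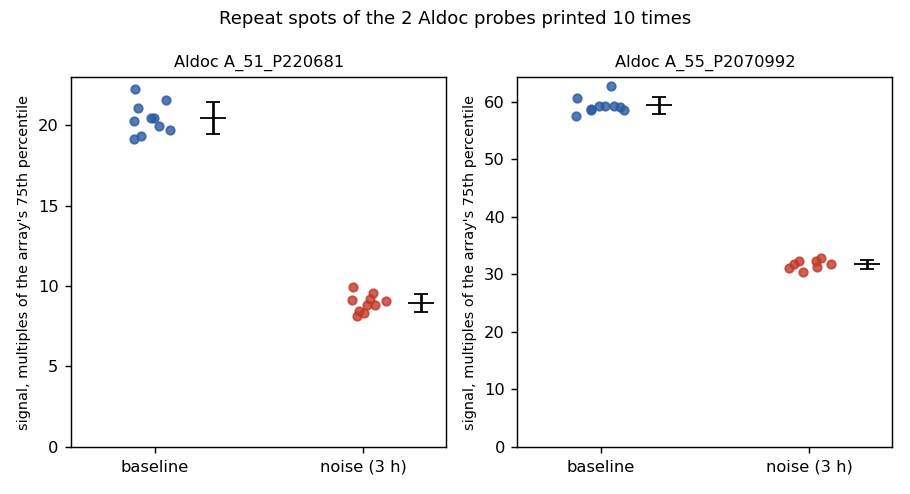
Repeat spots of the 2 Aldoc probes printed 10 times, with the processed signal as multiples of the array's 75th percentile on the vertical axis, from 0, and the array on the horizontal axis. Each point is 1 spot, and the bars give the mean ± SD of the spots. For A_51_P220681 the noise spots lie between 8.14 and 9.94 and the baseline spots between 19.1 and 22.3.

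Gfap encodes the intermediate filament protein of astrocytes, which is also made by satellite and non-myelinating Schwann cells. Its signals were 471 (noise) and 599.9 (baseline) for A_55_P2157250 (NM_010277), and 796 and 1008 for A_52_P52303 (NM_001131020). The log2 ratios were -0.53 and -0.52, close to each other although the probes belong to different transcripts. At 1.44-fold lower, Gfap lay under the 2-fold rule, with 6.09% of measured genes at or below it. It was the nearest gene outside the rule, and Nkx2-2 at -1.06 was the nearest inside it.

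Aldh1l1 encodes a folate enzyme that marks astrocytes widely in the brain. Its probe A_55_P1983733 had signals of 753 (noise) and 971 (baseline), a log2 ratio of -0.55, while the dimmer A_66_P128931 had 18.0 and 15.8, a ratio of 0.00. The gene's value, the median of both, was -0.27. Of all measured genes, 17.2% lay at or below it, so Aldh1l1 was well inside the spread of the array.

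Slc1a3 encodes GLAST, the glutamate transporter of astrocytes and, in the cochlea, of supporting and satellite cells. Its probe A_66_P104552 had signals of 1040 (noise) and 1015 (baseline), a log2 ratio of -0.15. A_52_P378975, for the transcript ENSMUST00000153455, had 293 and 201.5, a ratio of 0.36, and a further probe, A_55_P2714110, stayed at background on each (1.01 and 0.973). The measured probes thus differed in sign, and the gene's value was 0.10. The pair of glial glutamate transporters stood apart from each other, with Slc1a2 at -1.78 and Slc1a3 at 0.10.

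Over the oligodendrocyte lineage genes Olig1, Olig2, Nkx2-2 and Pdgfra the median log2 ratio was -1.19, with 3 of 4 genes at least 2-fold lower. Over the 5 astrocyte genes it was -0.53, with 2 of 5. Of all measured genes, 1.25% were at least 2-fold lower. In the dimmest of 5 equal classes of measured genes, which held Olig2 and Nkx2-2, 2.43% were. The order of the medians turned with normexp background correction, to -0.33 and -0.49. Olig1, a basic helix-loop-helix factor of oligodendrocyte maturation, had a signal of 134 after noise and 318 at baseline from its single probe, a log2 ratio of -1.43. It was the only one of the 10 genes that stayed past 2-fold under all 10 alternatives of processing that recomputed its ratio. Olig2, the related factor needed to specify the lineage, had signals of 11.6 and 25.6, a log2 ratio of -1.32. Nkx2-2, a homeodomain factor of precursors that also acts in ventral spinal cord patterning, had 8.0 and 14.7 with A_51_P197718, a log2 ratio of -1.06.

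Olig2 and Nkx2-2 were close to background. The lowest signal called well above background was 4.58 for noise and 4.35 for baseline, and the log2 ratio carried a standard error of 0.25 for Olig2 and 0.32 for Nkx2-2 by the scanner software's own error model, against 0.20 for bright spots. A further Nkx2-2 probe, A_55_P1985905, had 1.35 and 4.51 and passed the background call on neither array. With normexp background correction, which adds an offset of 50 to every signal, Olig2 was at -0.41 and Nkx2-2 at -0.25. With a stricter filter (a signal of at least 20 on both arrays) neither was measured. Genes this dim pass the 2-fold rule more often: 2.43% of the dimmest of 5 equal classes of measured genes were at least 2-fold lower, against 0.434% of the brightest. Olig2 and Nkx2-2 fell in the dimmest class, Aldoc in the brightest, and Slc1a2 and Olig1 in the class next to it, where 0.679% were.

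Pdgfra encodes the receptor through which PDGF ligands drive precursor growth, and fibroblasts make it as well. Its probes had signals of 22.4 (noise) and 24.9 (baseline) for A_55_P2734892, 103.8 and 85.8 for A_55_P2735715, and 1437 and 1274 for A_51_P345649. The log2 ratios were -0.33, 0.09 and -0.01, so the gene's value was -0.01 and no probe neared 2-fold. S100b, a calcium-binding protein of several glial cells, had signals of 56830 (noise) and 51590 (baseline) from its single probe, with a log2 ratio of -0.04. Neither differed between arrays by more than the SD of 0.27 between probes of the same gene. Their sign was not settled: with spike-in scaling Pdgfra was at 0.21 and S100b at 0.18, and with normexp both were at 0.01, with quantile normalization turning S100b (0.06) and median scaling Pdgfra (0.02) as well.

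**Figure D2:**
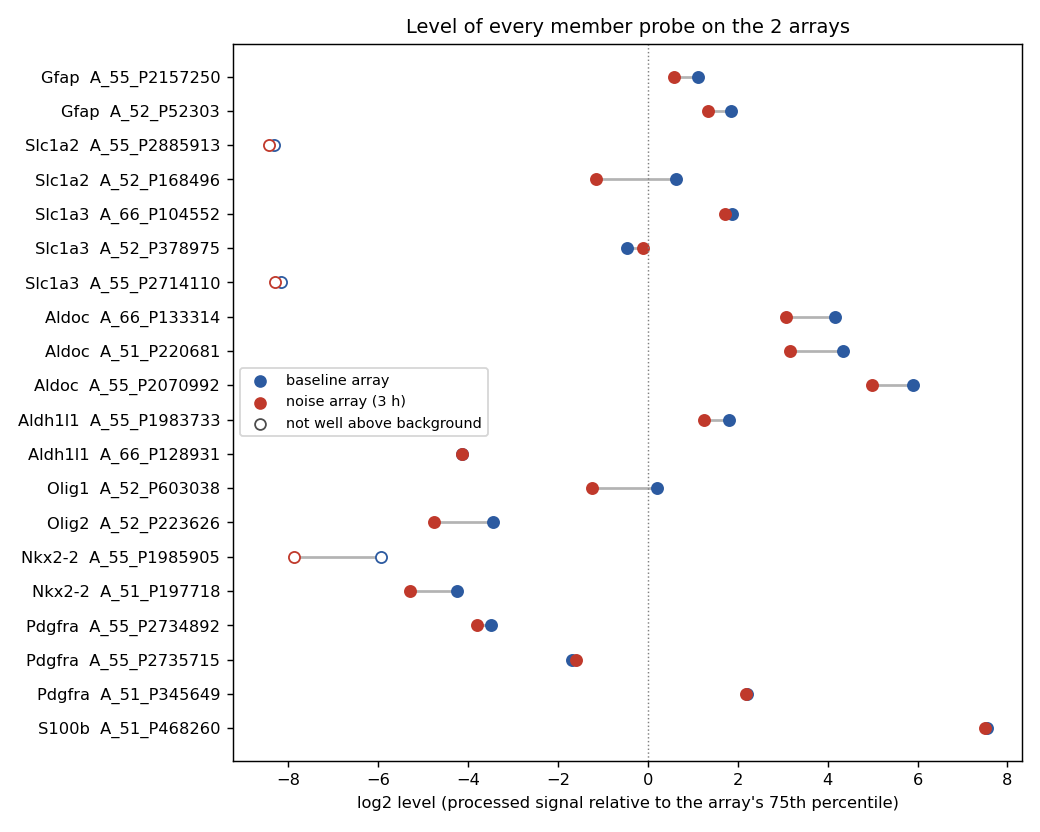
Level of every probe of the 10 genes on the noise and baseline arrays, as log2 of the processed signal relative to the array's 75th percentile, with probes on the vertical axis. The widest gaps are those of Slc1a2, Olig1, Olig2, Nkx2-2 and Aldoc, and the S100b points nearly coincide.

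**Figure D3:**
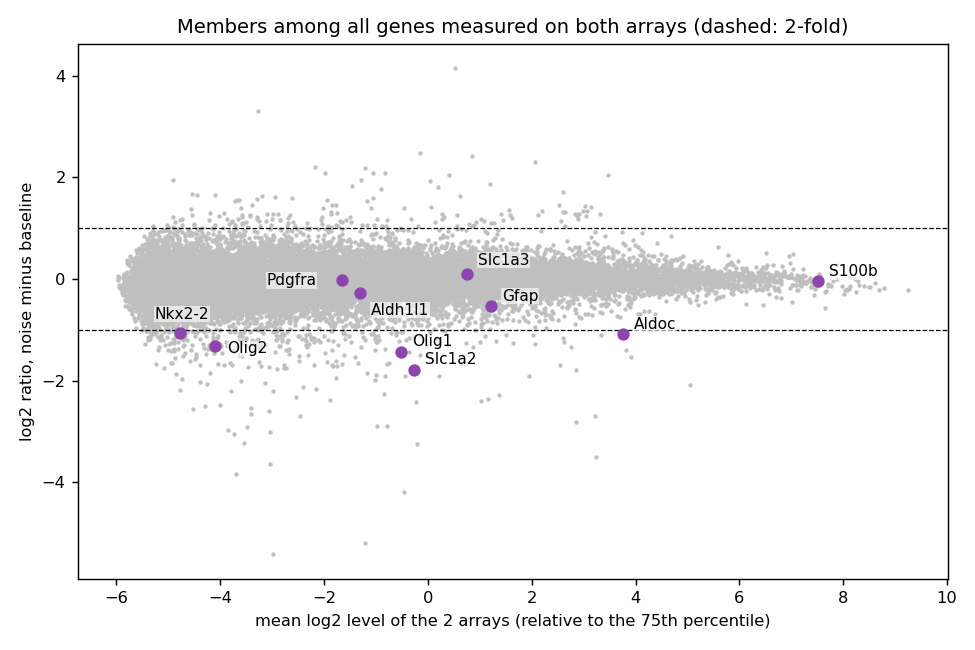
Log2 ratio, noise minus baseline, of all 26528 measured genes (grey) against their mean log2 level, with the 10 genes in purple and dashed lines at 2-fold. Slc1a2, Olig1, Olig2, Nkx2-2 and Aldoc lie at or below the lower line, and the grey cloud widens to the left, where Olig2 and Nkx2-2 sit.

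Among the other genes of each cell type, further astrocyte genes were mostly lower after noise. Of 29 measured of 30, 24 had a ratio below 0, 5 were at least 2-fold lower (17.2%) and none was at least 2-fold higher, with a median of -0.62. The lowest were Slc39a12, a zinc transporter, at -1.88, Ntsr2, a neurotensin receptor of astrocytes, at -1.67, Itih3 at -1.66 and Slc7a10, an amino acid transporter, at -1.23 from 2 probes that disagreed (-2.45 and -0.01). The fifth, Grin2c, an NMDA receptor subunit gene, was at -1.13 and is named after its value was seen. Slc6a11, the GABA transporter GAT-3, passed the background call at baseline only, where its level was at least 8.67-fold higher. Clu, the brightest of the list, was at -0.03. The list's summed level was 228 multiples of the 75th percentile after noise and 249.7 at baseline. Clu alone held 147.6 (noise) and 150.6 (baseline) of these, so the sums mostly follow Clu.

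Genes of oligodendrocyte precursors and of central myelin also leaned lower, with smaller medians. Of 18 measured precursor genes of 20, 13 lay below 0 and 3 were at least 2-fold lower (16.7%), with a median of -0.29. These were C1ql1 at -1.72, Nkx6-2 at -1.38 and Gpr17, a receptor of committed precursors, at -1.24. Sox10, which Schwann cells need as well, was the brightest, at 0.04. Of 26 measured oligodendrocyte and myelin genes of 27, 21 lay below 0 and 3 were at least 2-fold lower, with a median of -0.44. Among these were Myrf, the myelin regulatory factor, at -1.09 and Klk6 at -1.04. Opalin was at least 6.05-fold higher at baseline, the array on which alone it passed the background call, by 1 of its 2 probes. The other Opalin probe passed on neither array. Trf was the brightest, at -0.12. With normexp background correction 3 astrocyte genes (Slc39a12, Ntsr2 and Itih3), 1 precursor gene (Nkx6-2) and 0 myelin genes were at least 2-fold lower, and with spike-in scaling 4, 3 and 0, while the 3 medians stayed below 0 under both. With the brightest probe of each gene, 9 astrocyte genes were at least 2-fold lower.

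The genes of reactive astrocytes ran the other way, but this was not particular to them. The 2 lists of cochlear cell types below also had medians above 0 (0.22 and 0.18). Gfap, at -0.53, was not on the list of reactive astrocyte genes. All 24 were measured, 20 lay above 0 with a median of 0.25, and 1 was at least 2-fold higher: Cxcl10, an interferon-induced chemokine that many cell types make, at 1.80 (679 against 171.5). It fell under 2-fold, to 0.65, when dim probes were kept. Hspb1, the brightest, was at 0.36 and Vim at 0.31. The Schwann cell and satellite glia genes, which share the sheath function but belong to the peripheral nerve, were measured for 24 of 24 and had a median of 0.07, with none past 2-fold in either direction and a summed level of 102 (noise) and 100.5 (baseline). Mal, the brightest of them, was at 0.07.

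The direct relatives of the 10 genes mostly stayed near 0. Of 45 measured family and pathway genes of 47, the median was -0.02 and 1 was at least 2-fold lower: Slc1a1, the neuronal glutamate transporter gene, at -1.22 from 2 probes at -1.83 and -0.61. With normexp background correction Slc1a1 was at -0.75 and no relative was at least 2-fold lower. The other transporters of the family, Slc1a4, Slc1a5, Slc1a6 and Slc1a7, were at -0.03, 0.27, 0.01 and -0.10. Aldoa, the muscle aldolase gene, was at -0.14, so Aldoc was lower than this relative. Aldh1l2, the mitochondrial relative of Aldh1l1, was at -0.02. Nkx2-9 was at -0.79, and Olig3 passed the background call on neither array, and so did Neu4 of the precursor list. The PDGF ligand genes Pdgfa, Pdgfb, Pdgfc and Pdgfd were at -0.13, -0.06, -0.06 and -0.06, and the receptor gene Pdgfrb at 0.01. Among relatives of Gfap, Vim was at 0.31, Des at -0.24, Nefl at -0.27, Nefm at 0.14, Nefh at -0.12, Ina at -0.50 and Prph at 0.17. Spike-in scaling added 0.22 to every ratio, so ratios less than 0.22 below 0, here and in the lists, turned positive with it. That shift rests on the median of 8 measured spike-in probes, whose own unscaled log2 ratios ran from -0.20 to 0.40.

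Markers of central neurons and of the choroid plexus differed between the arrays as well. Other lists of tissues that the dissection could hold did not. The Schwann cell and satellite glia, microglia and fibroblast lists had medians of 0.07, -0.07 and 0.02, with no gene past 2-fold. Of 22 measured central neuron genes of 24, 18 lay below 0 and 7 were at least 2-fold lower (31.8%), with a median of -0.56 and a summed level of 43.7 (noise) against 60.01 (baseline). The lowest were Glra1, a glycine receptor subunit gene, at -4.19, Slc32a1 at -3.25, Gad2 at -2.90 and Grin2a at -2.07. Slc6a5, the glycine transporter of inhibitory neurons, was at least 45.6-fold higher at baseline by 1 of its 2 probes, and Cbln3 at least 2.18-fold. The other Slc6a5 probe passed the background call on neither array. Slc6a5 and Cbln3 were the genes of the list at background after noise. With normexp background correction 4 neuron genes were at least 2-fold lower, and Gad2 (signal 10.3 after noise) was at -1.07 and Grin2a (8.05) at -0.53. With the stricter filter 4 neuron genes were at least 2-fold lower, and neither Gad2 nor Grin2a was measured. Pcp2, a Purkinje cell gene, was at 1.60 in the other direction, and Cplx1, the brightest, at -0.21. Of 9 choroid plexus genes, all measured, 8 lay below 0 and 3 were at least 2-fold lower (33.3%): Ttr at -2.36, Folr1 at -1.73 and Kcne2 at -1.05, with the brightest, Aqp1, at -0.30 and a summed level of 24.4 against 32.7. With normexp only Ttr of these stayed past 2-fold. The part of central neuron and choroid plexus tissue in the lower astrocyte and oligodendrocyte genes was not tested.

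The lists of cochlear cell types, and those of fibroblasts and microglia, differed less. All 31 cochlear markers were measured on both arrays. Over the 16 supporting cell and fibrocyte genes the median was 0.22, with the brightest, Coch, at 0.34. Only Pou3f4 was at least 2-fold lower, at -1.22, but not with spike-in scaling (-0.99), normexp (-0.55) or no filter on dim probes (-0.72). Over the 15 hair cell and stria genes it was 0.18, with none past 2-fold and the brightest, Atp1b1, at -0.15. The 16 fibroblast genes had a median of 0.02, with Dcn, the brightest, at 0.12, and the 12 microglia genes a median of -0.07. No gene of these last 2 lists was past 2-fold. With spike-in scaling the microglia median lay above 0.

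**Figure D4:**
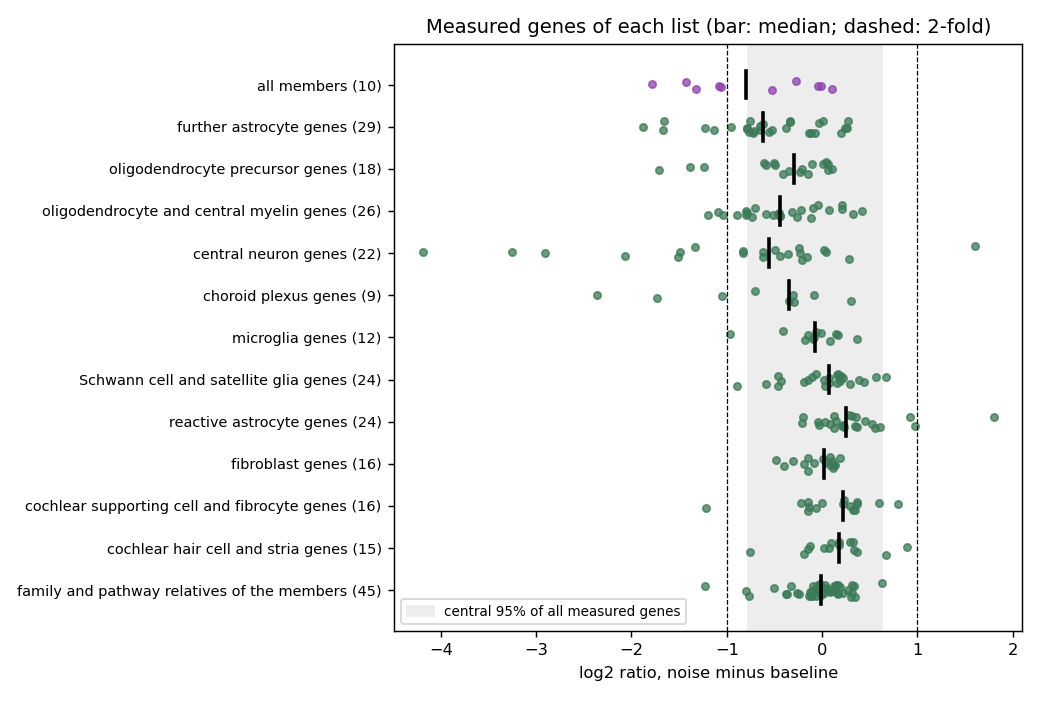
Log2 ratio, noise minus baseline, of the measured genes of each list on the horizontal axis, 1 point per gene, with a bar at the list's median, dashed lines at 2-fold and a grey band over the central 95% of all measured genes (-0.77 to 0.63). The medians of the astrocyte (-0.62), myelin (-0.44), central neuron (-0.56) and choroid plexus (-0.34) lists lie left of 0. Those of the reactive astrocyte (0.25), supporting cell and fibrocyte (0.22) and hair cell and stria (0.18) lists lie right of it.

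The ratios of the 10 genes depended on processing as follows. Slc1a2 ranged from -1.79 to -0.95 and Aldoc from -1.10 to -0.86 over the alternatives, and Olig1 from -1.44 to -1.11. Slc1a2 left the 2-fold rule only when its dim probe entered with no filter. Aldoc left it with its brightest probe alone (-0.90) and with spike-in scaling (-0.86). Gfap ranged from -0.54 to -0.31 and Aldh1l1 from -0.55 to -0.05, all below 0 and under 2-fold. Slc1a3 ranged from -0.15, with its brightest probe, to 0.33, and so had no settled sign.

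**Figure D5:**
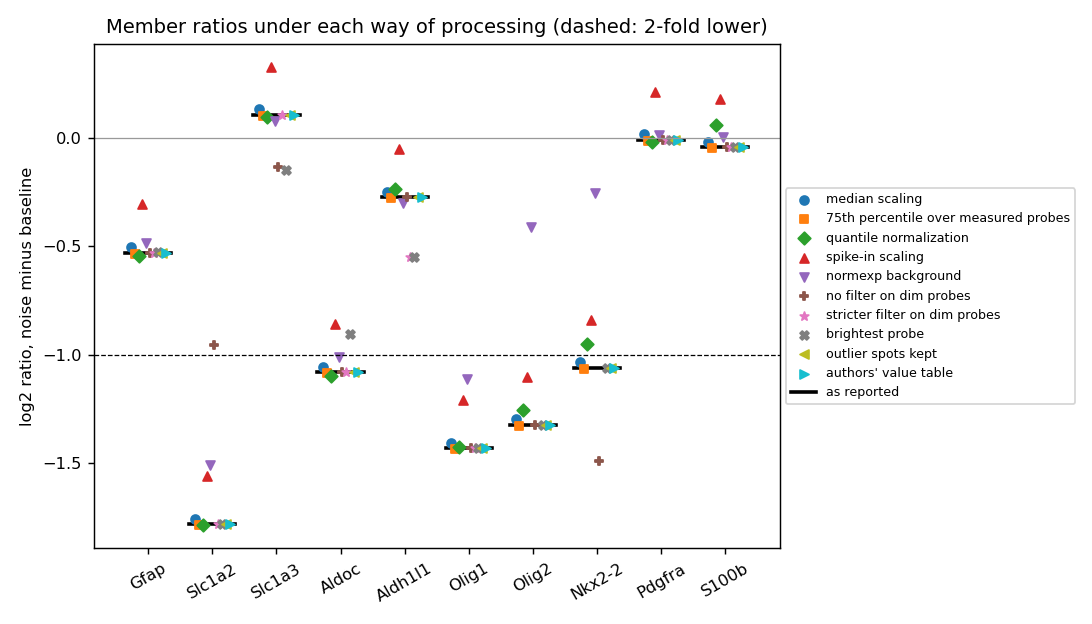
Log2 ratio, noise minus baseline, of each of the 10 genes under the reported processing and each alternative, with a dashed line at 2-fold lower. Olig1 stays below the line throughout, while Olig2 and Nkx2-2 rise to -0.41 and -0.25 with normexp background correction.

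The arrays were alike in brightness. Per the file headers they shared a slide and a scan. The 75th percentile of the processed signal was 316 (noise) and 278 (baseline), 75.3% and 75.2% of probes were well above background, and no spot was saturated. The number of arrays limits the precision.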

How the data were processed

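Each deposited scanner file holds the intensity of every spot of 1 array, made with Agilent Feature Extraction 11.5.1.1 per the file headers, which subtracted background and detrended each array. The deposited value table is in log2 units. It equalled log2 of the processed signal minus 8.30 (noise) or 8.12 (baseline), with column medians of -2.81 and -2.79 and no centring per gene, and it was an alternative here. The labelling started from 0.1 micrograms of RNA, per the labels' protocols.

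Spots with outlier flags were left out (77 noise, 58 baseline). Repeat spots were averaged on the log2 scale, each array's 75th percentile over 56590 probes was subtracted, and a gene took the median log2 ratio of its measured probes. Where a gene passed the background call on 1 array only, an at-least fold was given, with the other array's level taken as its own value or that array's lowest passing level, whichever was higher. It came from the gene's probe with the largest such fold. Different probes of a gene differed with an SD of 0.27 (9348 genes). Repeat spots gave the log2 ratio of a single spot a median SD of 0.071 at signals of 300 or more (296 probes). At signals of 30 to 300 it was 0.11 (4 probes). The scaling and gene steps were run on simulated data with the same small noise for every probe at every level. That checks the calculation and not the 2-fold calls on dim or disagreeing probes. Python 3.11.15, pandas 2.3.3, R 4.3.3 and limma 3.58.1 (normexp, offset 50) were used.

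The members and the 12 gene lists (264 entries, 4 genes in more than 1) were chosen with earlier results of these data known. Named were all 10 members, and from each list the genes past 2-fold (at most 4 per direction), the largest at-least fold past 2 and the brightest gene, plus direct relatives of the members whatever their value. A few genes that this rule takes are not reported here.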

Additional observations from a re-analysis of the deposited data

How the results depend on the processing

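The number of the 10 genes at least 2-fold lower was 5 as reported and 3 with spike-in scaling, with normexp background correction or with the stricter filter on dim probes. It was 4 with quantile normalization, with no filter or with the brightest probe of each gene, and 5 under the other alternatives. None of the 10 was 2-fold higher under any of the 11 alternatives tried. Over all measured genes, 332 were at least 2-fold lower and 162 higher. These counts became 186 and 351 with spike-in scaling, 74 and 56 with normexp, 1296 and 672 with no filter, and 1325 and 800 under a 1.5-fold rule, and 179 were lower with the stricter filter. The share of lower among all calls thus turned with spike-in scaling. The median over the 10 genes was -0.35 with normexp. No ratio of a gene past 2-fold reversed. For the stricter filter the cause is its construction, since Olig2 and Nkx2-2 were no longer measured. Normexp added an offset of 50 to every signal, which by construction draws the ratios of dim probes toward 0. The signals of Olig2 and Nkx2-2 lay under this offset on both arrays, and how much of the drop it made was not tested. No paired analysis was possible because neither group had more than 1 sample, and no replicate could be left out. Signal over background limits Olig2 and Nkx2-2, and no probe with repeat spots was as dim as they were.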
